A study of Mus musculus with 3 samples.

Results

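Genes of potassium, calcium, TRP and ATP-gated ion channels were examined in mouse pro-B cells with and without Pax5, the transcription factor that commits progenitors to the B lineage. The members are all genes whose symbol starts with Kcn, Cacn, Trpm, Trpc, Trpv, Orai, Stim or P2rx and that had 10 or more counts summed over the 3 libraries; 2 genes named in the rule were left out. This gave 46 genes of 158 with such symbols and of 27179 in the table. Of the 112 others, 71 had no counts in any library and 41 had 1 to 9. The sum of counts chose the members and took no account of genotype. Just inside the limit were Kcnh4 with a sum of 13 counts and Kcnk13 with 14, and just outside it Kcna5, Kcnf1 and Kcnab3 with 9 each.

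Total RNA was sequenced from 2 independently prepared Pax5-/- samples, both male, and 1 wild-type sample, female, all of C57BL/6 bone marrow. B220+ cells had been expanded on OP9, a stromal feeder line, and no other allele or agent is named. For both Pax5-/- samples the labels add an IgM- fraction taken at day 7 by immunomagnetic depletion, a step not given for the wild type, so genotype, sex and this step cannot be told apart. No member lies on the X or Y chromosome. Library totals were 6487846 and 6697879 counts in Pax5-/- samples 1 and 2 and 6530057 in the wild type. In such bulk samples, fewer cells of a type and less RNA per cell cannot be told apart.

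Lymphocytes have few voltage-driven currents but depend on a slow calcium entry. When the endoplasmic reticulum store empties, STIM proteins in its membrane open ORAI pores at the cell surface, and potassium channels keep the membrane negative so that calcium goes on flowing in. TRP channels are cation channels gated by lipids, heat or stretch, P2X receptors are cation channels opened by extracellular ATP, and voltage-gated calcium channels consist of a pore subunit with auxiliary beta and alpha2delta subunits.

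The labels were checked first. Pax5 itself had 417, 551 and 1601 counts (in this order throughout: Pax5-/- sample 1, Pax5-/- sample 2, wild type), but the exons missing from the allele are not named, so counts over the whole gene cannot check the genotype. All 16 pro-B markers looked up were counted in every library, among them Rag1, Dntt and Il7r; 7 rose and 7 fell. Other cells were also traced, as sums of CPM, counts scaled to library size with TMM factors. Of 12 neutrophil and monocyte genes, 8 were tested, of which Lyz2 rose (92, 128 and 28 counts), S100a8, S100a9 and Ngp fell and 4 were not called, among them Itgam with 65, 128 and 72 counts. All 12 summed to 29.3 and 46.0 CPM in Pax5-/- and 90.0 in the wild type, with S100a8, S100a9, Ngp, Camp and Elane at 0 in both Pax5-/- samples. Of 7 genes of later B cells, 5 were tested and fell, and the list summed to 50.9 and 24.7 CPM against 923. Of 8 mast, basophil and megakaryocyte genes, 2 rose, and they summed to 21.8 and 24.8 CPM against 0.780, with Fcer1a, Ms4a2, Prss34 and Pf4 at 0 in all 3 libraries. Of 10 T-cell genes, 2 of 3 tested rose (251 and 211 CPM against 41.8), and Cd3g and Bcl11b were at 0 in Pax5-/-. Most of each sum was Lck, which rose, at 231 and 176 CPM against 38.5. Cd247 also rose, with 91, 194 and 1 counts, and Trac was not called. Cd3e, Cd3d, Cd8a and Cd8b1 had 0 to 2 counts in each library. Of 13 stromal genes, 1 rose and 1 fell among 9 tested (68.1 and 99.002 CPM against 57.7). In Pax5-/- that sum is mostly Thy1, which rose, and the other 12 summed to 12.2 and 11.8 CPM against 39.0 (median log2 fold change of those tested, Thy1 included, -1.55). Of 7 dendritic genes, 3 rose and 1 fell among 6 tested (279 and 279.8 CPM against 375). The one that fell was Irf8, also a B-lineage gene, and without it the sums were 213 and 209 CPM against 7.49. Most of that in Pax5-/- was Flt3, at 162 and 152 CPM against 0.468. Siglech and Ccr9 also rose, Itgax and Xcr1 were not called, and Zbtb46, below the filter, had 2, 3 and 2 counts. Of 9 NK and innate lymphoid genes, 1 rose among 3 tested (27.9 and 34.5 CPM against 4.21). None of 7 erythroid genes passed the filter.

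Of the 46 ion channel genes, 42 passed the filter on low counts and 4 (Kcnh4, Kcnk13, Cacna1d and Cacnb3) did not. A gene was called where the edgeR quasi-likelihood test over all genes gave a Benjamini-Hochberg adjusted p under 0.05. By that rule 8 members rose in Pax5-/-, 8 fell and 26 were not called. Among all genes, 18.1% of the 11783 tested were called, 9.53% higher and 8.55% lower, against 38.1% of the tested members. That share is not support for a difference of the set. In 7 of the 8 that fell both Pax5-/- libraries had under 10 counts, and 4 of the 8 that rose had under 10 in the wild type, so these passed the filter only through the side on which they are high. Among the 24 members with 10 or more counts in every library, 5 were called, against 14.8% of all such genes. The median log2 fold change of tested members was 0.21, beside 0.0074 for all tested genes. Counts of calls by class or list below are likewise to be read beside the 18.1% of all tested genes. The test draws its spread from the 2 Pax5-/- samples, and the lone wild type is assumed to vary like them.

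Both Pax5-/- samples differed from the wild type by at least 2-fold, on log2 CPM with a prior count of 2, in 14 members upward and 10 downward. Among all 12581 genes with 10 or more counts the shares were 11.4% and 8.66%. Of the 14 and 10 members, 7 and 8 were called, and some reached 10 counts only through the side on which they are high. These numbers are likewise no support for a difference of the set. The 2 Pax5-/- samples differed little in most members. In the 31 with 10 or more counts in both, sample 2 over sample 1 had a median size of 0.14 on the log2 scale, beside 0.17 over all 10828 such genes. The widest gaps were in P2rx1 and Cacna1b, both higher in sample 2, by 0.85 on the log2 scale each.

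**Figure D1:**
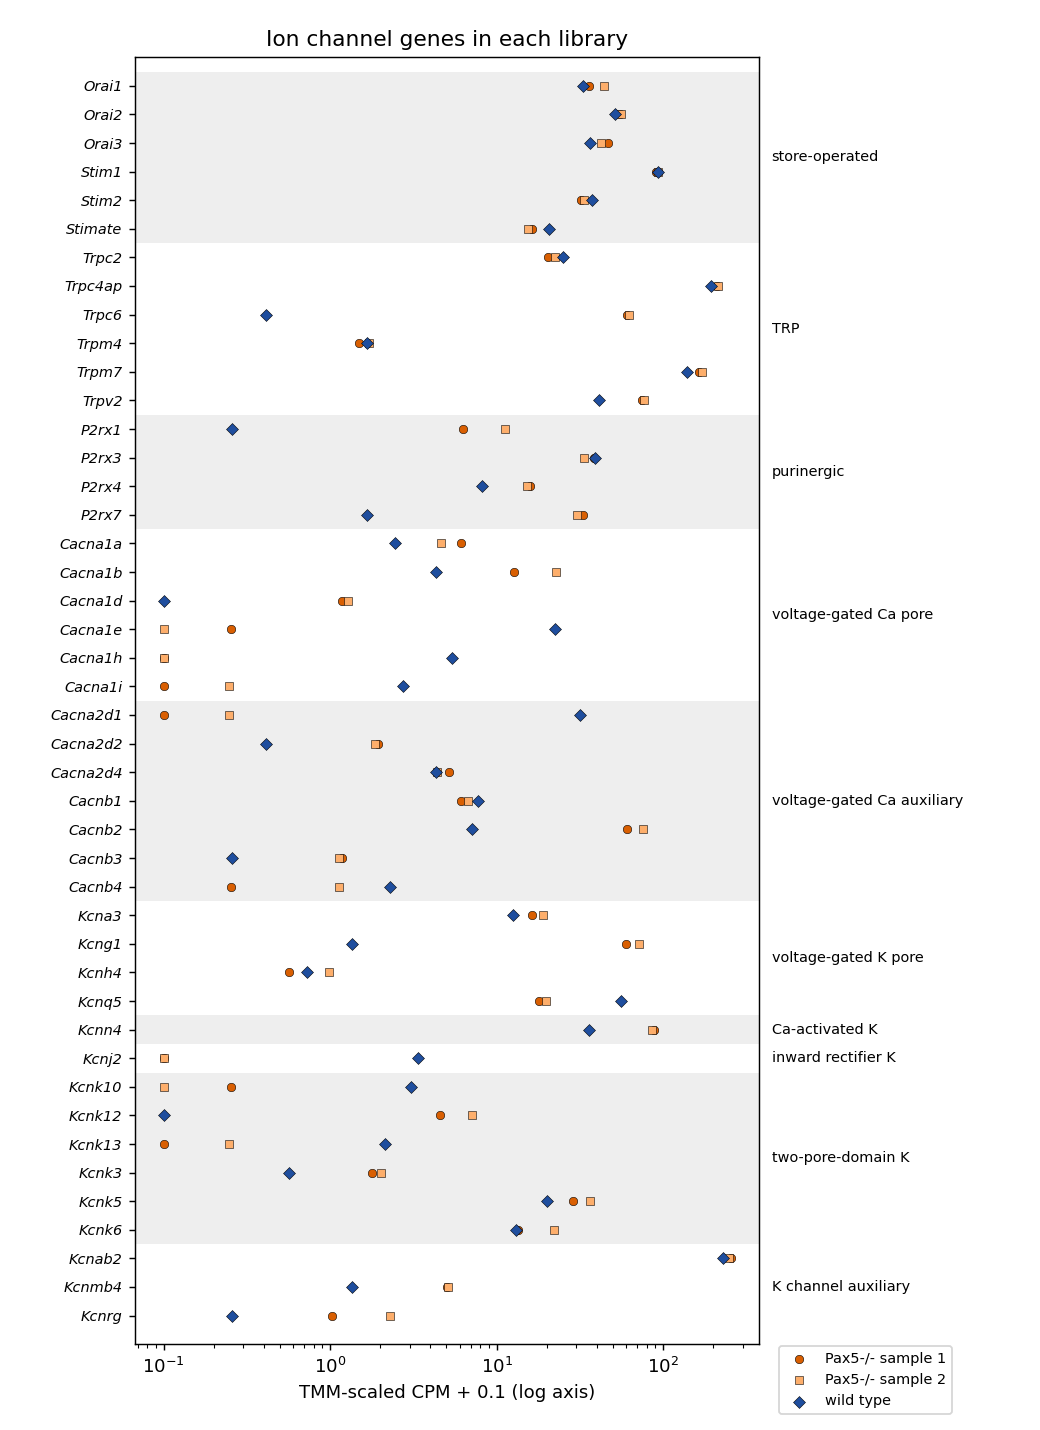
Level of 44 of the 46 ion channel genes in each library, as TMM-scaled CPM plus 0.1 on a log axis, with genes grouped by class; circles and squares are the Pax5-/- samples and diamonds the wild type. The store-operated genes lie close together in all 3 libraries, while Trpc6, Kcng1, P2rx7 and Cacnb2 lie to the right in both Pax5-/- samples and Cacna1e and Cacna2d1 to the right in the wild type.

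The genes of store-operated entry were counted at similar levels in all 3 libraries, and none of the 6 was called by edgeR, at an unadjusted p under 0.05 (0 of 6) or by any of the 10 alternatives, DESeq2 and limma-voom included. Stim1, the main sensor of the store, had 590 and 632 counts without Pax5 and 596 with it (91.9 ± 1.25 CPM, SD, n = 2, against 93.0 CPM). Its log2 fold change was -0.02, with a 95% interval of -0.41 to 0.37. Stim2, a sensor that responds to smaller losses, had 208, 227 and 240 counts (log2 fold change -0.19, interval -0.60 to 0.21). Differences beyond those bounds lie outside the model's interval, but smaller ones were not detectable with these samples.

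Of the pores, Orai1, which carries the classical current, had 233 and 301 counts against 212, a log2 fold change of 0.28 (interval -0.25 to 0.81). Orai2 had 356 and 381 counts against 330 (0.11, interval -0.29 to 0.50). Orai3 had 301 and 287 against 234 (0.28, interval -0.14 to 0.70). All 3 pores were higher in both Pax5-/- samples than in the wild type, without passing the test. Stimate, which encodes a STIM-activating membrane protein and no pore, had 105, 104 and 132 counts (-0.39, interval -0.93 to 0.16). Summed over Orai1 to Orai3, Stim1 and Stim2, counts were 1688 and 1828 in Pax5-/- and 1612 in the wild type.

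Among potassium channels that hold the membrane negative in lymphocytes, the calcium-activated one rose. Kcnn4 encodes KCa3.1, which opens when internal calcium rises (mm10 chromosome 7, 24369826 to 24385212). It had 568 and 580 counts without Pax5 and 228 with it, or 86.4 ± 1.75 CPM (SD, n = 2) against 35.6 CPM. Both Pax5-/- samples lay above the wild type and close to each other. The log2 fold change was 1.28 (with SE 0.15 and an adjusted p of 0.0146). With the spread between replicates set to a coefficient of variation of 0.4 it was no longer called, and adjusted p ran from 0.000167 to 0.49995 over the 10 alternatives. Kcna3, the voltage-gated Kv1.3 that serves the same role in resting lymphocytes, had 105, 129 and 80 counts. Its log2 fold change of 0.49 (with SE 0.23 and an adjusted p of 0.219) was not called. No other calcium- or sodium-activated pore gene reached the limit of 10 counts, and Kcnma1, the BK channel, had 2, 2 and 0 counts.

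For Kcnn4 the stretches before the gene start are shown because they hold the letters TGTGGT, which Runx factors bind, 4 times on either strand in the window searched (250 bases before and 50 after a transcript start, RefSeq, GRCm38.p6; for Kcnn4 this start lies inside the gene's own span). Only 15 of 32851 promoters (0.0457%) held 4 or more, and 16.8% held at least 1, beside 7 of 49 promoters (14.3%) of the 36 members with an entry and 12.9% of the promoters of tested genes. Capitals mark the letters, and ACCACA is the same motif on the other strand. The stretches are chr7:24370033-24370062, chr7:24370069-24370098 and chr7:24370157-24370186, plus strand:
Kcnn4, 226 bases before the start: gctcTGTGGTgtctgggTGTGGTgggggtt
Kcnn4, 190 bases before the start: gtgtACCACAgagtgcaaacggttggagag
Kcnn4, 102 bases before the start: cgggACCACAagacacaccccagcccctcc

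A match describes letters only and no binding was measured. The other 5 members with these letters were Cacnb1, Cacnb4, Orai3, Trpc2 and Trpv2, of which Trpv2 was called.

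Of 23 TRP symbols, 6 were members, of which 2 rose and 4 were not called. Trpc6 encodes a channel opened by diacylglycerol, the lipid that phospholipase C releases (chromosome 9, 8543867 to 8680752). It had 395 and 425 counts without Pax5 and 2 with it, or 61.7 ± 1.03 CPM (SD, n = 2) against 0.312 CPM. The pooled ratio was 198 (95% interval from counting error 54.6 to 1636; adjusted p = 0.00272). It was called under all 10 alternatives. By level per length it ranked 40 of the 46 members in the wild type and 10 in both Pax5-/- samples. Trpv2, a cation channel found in many leukocytes, had 481 and 523 counts against 264, or 75.5 ± 1.83 CPM (SD, n = 2) against 41.2 CPM. It rose by 0.87 on the log2 scale (with SE 0.15 and an adjusted p of 0.0310), a call lost with a coefficient of variation of 0.4 (adjusted p from 0.0187 to 0.915 over the alternatives).

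Trpm7, which joins a magnesium-permeable channel to a kinase, had 1068 and 1172 counts against 889. Its log2 fold change of 0.28 (with SE 0.13 and an adjusted p of 0.215) was not called, although both Pax5-/- samples were above the wild type. Trpm4, a channel that calcium opens and that passes sodium, had only 9, 11 and 10 counts. Trpc2 had 131, 151 and 161 counts (log2 fold change -0.24, SE 0.18). It is uncertain, since 97.5% of its exon bases in GENCODE M21 belong to the readthrough gene Xntrpc as well. Trpc4ap matches the rule by symbol only: it encodes an adaptor protein and no channel, and had 1364, 1445 and 1247 counts. Trpc1 had no counts and Trpm2 had 0, 0 and 1. Without Trpc4ap, the TRP channels summed to 73.9 and 76.8 CPM per kilobase in Pax5-/- and to 40.8 in the wild type.

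Of the ATP-gated channels, 2 rose and 2 were not called. P2rx7, whose channel dilates under sustained ATP in macrophages and T cells (chromosome 5, 122643927 to 122692336), had 213 and 206 counts without Pax5 and 10 with it. That is 31.6 ± 1.85 CPM (SD, n = 2) against 1.56 CPM, a log2 fold change of 4.32 (with SE 0.27 and an adjusted p of 0.00456), and the call held under all 10 alternatives. P2rx1, known from platelets and neutrophils, had 40, 76 and 1 counts, with a ratio of 56.0 (95% interval from counting error 9.85 to 2230; adjusted p = 0.0277). The call of P2rx1 was lost with limma-voom (adjusted p from 1.85e-07 to 0.0808 over the alternatives). Of the neutrophil and monocyte list 3 genes fell and 1 rose in the same comparison. Of the mast, basophil and megakaryocyte list Cpa3 and Mcpt8 rose. Gp9 (8, 8 and 1 counts) and Itga2b (2, 0 and 3) were below the filter, and Fcer1a, Ms4a2, Prss34 and Pf4 had no counts. The part of such cells in the P2rx1 result was not tested.

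P2rx4, the neighbour of P2rx7, stood 63591 bases from it by start position and had 102, 103 and 52 counts. Its log2 fold change of 0.93 (with SE 0.24 and an adjusted p of 0.0725) was not called, and it passed only in the likelihood ratio test (adjusted p from 0.0405 to 0.892). P2rx4 shares 11360 bases of its span, but no exon bases in GENCODE M21, with Camkk2, which had 658, 718 and 425 counts (not called). P2rx3, a receptor of sensory neurons, had 249, 227 and 250 counts (log2 fold change -0.12, SE 0.17). Its exons overlap those of Ssrp1, on the other strand, by 51 bases. Ssrp1 had 3920, 3872 and 3974 counts, and without a stated strand setting the shared reads cannot be told apart. The P2X genes summed to 93.2 and 89.9 CPM in Pax5-/- and to 48.8 in the wild type.

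The region before the first P2rx7 start of the table, 250 bases on the plus strand (RefSeq, GRCm38.p6, chr5:122643677-122643926), is shown because this gene rose in every alternative, and that before Kcnj2 (chr11:111065914-111066163, plus strand), a gene that fell to 0, stands beside it. Neither holds GCGTGAC (letters of the Pax5 site), the Ebf1 motif or TGTGGT on either strand, with the 50 bases after the start searched as well, so no base is in capitals:
P2rx7: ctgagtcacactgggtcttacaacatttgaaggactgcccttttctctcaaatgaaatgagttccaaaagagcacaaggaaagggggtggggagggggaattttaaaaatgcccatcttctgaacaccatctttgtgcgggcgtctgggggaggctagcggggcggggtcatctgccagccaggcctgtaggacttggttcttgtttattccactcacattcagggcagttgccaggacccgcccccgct
Kcnj2: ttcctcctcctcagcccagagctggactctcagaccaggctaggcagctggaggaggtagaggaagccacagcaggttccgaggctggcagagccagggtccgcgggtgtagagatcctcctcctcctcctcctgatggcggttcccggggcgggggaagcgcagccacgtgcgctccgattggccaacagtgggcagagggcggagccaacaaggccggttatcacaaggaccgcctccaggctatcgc

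The 2 differ in base composition, with 53.6% G and C and 6 CG pairs before P2rx7 and 65.6% and 14 before Kcnj2. The median was 52.4% over all promoters and 60.4% over those of members. An absent match says only that these letters are not in this window.

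Voltage-gated calcium channel subunits moved in both directions: of 11 tested genes, 1 rose, 4 fell and 6 were not called. Among all tested genes 9.53% rose and 8.55% fell. The 4 that fell had 0 or 1 counts over both Pax5-/- libraries and passed the filter only through the wild type, so their number is no support for a difference of the class. The pores of the R type, and of the T type that opens at weak depolarisation, were counted almost only in the wild type. Cacna1e, the R-type pore (chromosome 1, 154390806 to 154884785), had 1 and 0 counts without Pax5 and 144 with it. The ratio was 298 toward the wild type (95% interval from counting error 52.7 to 11869; adjusted p = 0.00617). Cacna1h, a T-type pore, had 0, 0 and 34 counts. It was 23.5-fold lower against 3 counts set over both Pax5-/- libraries (adjusted p = 0.0307). Cacna1i, another T-type pore, had 0, 1 and 17 counts, a ratio of 35.2 (95% interval from counting error 5.52 to 1472; adjusted p = 0.0495). The call of Cacna1i was lost with DESeq2 and with library size alone (adjusted p from 1.92e-05 to 0.180). Together these 3 pores had 1 and 1 counts without Pax5 and 195 with it.

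The pores of the P/Q and N types, which trigger transmitter release in neurons, were higher in both Pax5-/- samples but were not called. Cacna1b, the N-type pore, had 82 and 155 counts against 27, a log2 fold change of 2.07 (with SE 0.50 and an adjusted p of 0.0629). It passed the threshold in 6 of the 10 alternatives (adjusted p from 0.00208 to 0.115), and Pax5-/- sample 2 lay 0.85 above sample 1 on the log2 scale. Cacna1a, the P/Q-type pore, had 39, 31 and 15 counts (1.17, with SE 0.45 and an adjusted p of 0.152). Cacna1d, an L-type pore, had 7, 8 and 0 counts, was below the filter and has no test. Against 3 counts set for the wild type Cacna1d was 2.41-fold higher, which is not a confidence limit. Its exons overlap those of Chdh by 587 bases, and Chdh had 89, 103 and 4 counts. Cacna1s, the L-type pore of muscle, had no counts.

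Among the auxiliary subunits, one rose and one fell. Cacna2d1 encodes the alpha2delta subunit that brings pores to the surface (chromosome 5, 15934264 to 16374511). It had 0 and 1 counts without Pax5 and 203 with it, a ratio of 421 toward the wild type (95% interval from counting error 74.7 to 16698; adjusted p = 0.00468). Cacnb2, a beta subunit that binds the pore inside the cell (chromosome 2, 14603861 to 14988811), had 395 and 512 counts against 45. At 68.1 ± 10.1 CPM (SD, n = 2) against 7.02 CPM it rose by a log2 fold change of 3.27 (with SE 0.24 and an adjusted p of 0.00555), and it was called in all 10 alternatives. Per kilobase of gene length, Cacnb2 stood at 13.7 and 16.9 CPM in Pax5-/- and 1.58 in the wild type, while the 6 pore genes summed to 2.62, 3.84 and 3.56.

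The other auxiliary genes were not called. Cacnb1 had 39, 45 and 49 counts, Cacna2d4 33, 29 and 27, and Cacnb4 1, 7 and 14. Cacna2d2 had 12, 12 and 2 counts, a ratio of 5.79 (95% interval from counting error 1.44 to 50.5; adjusted p = 0.112). Cacnb3, the beta subunit described in T cells, had 7, 7 and 1 counts and was below the filter. Cacna2d2 passed only in the likelihood ratio test (adjusted p from 0.0321 to 0.467).

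**Figure D2:**
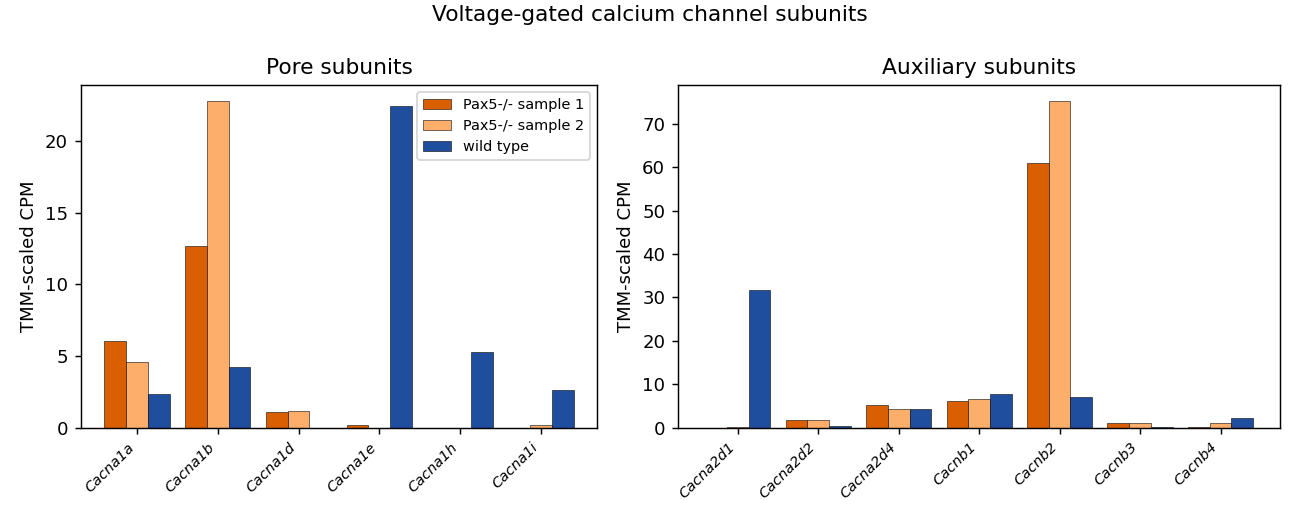
Voltage-gated calcium channel subunits in each library, as TMM-scaled CPM on a linear axis from 0, pores on the left and auxiliary subunits on the right. Cacna1e, Cacna1h, Cacna1i and Cacna2d1 stand out in the wild type and Cacna1b and Cacnb2 in the Pax5-/- samples.

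The GCGTGAC letters stood before 2 members with a promoter entry, both calcium channel genes that were not called. The stretches lie at chr2:24763196-24763225, minus strand, and chr9:107399715-107399744, plus strand, and begin 11 bases before the capitals, which mark the letters:
Cacna1b, 62 bases before a start: taggcttggccGCGTGACcgaccccttata
Cacna2d2, 154 bases before a start: cacaggcgggcGCGTGACcgcggcgggggc

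These letters were held by 4.08% of the members' promoters, by 3.92% of the promoters of tested genes, by 2.09% of all promoters and by 0 of the promoters of called members. The Ebf1 motif was held by 0.904% of all promoters and by 0 of the members' 49.

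Voltage-gated potassium pores moved in both directions. Kcng1 encodes Kv6.1, a subunit that forms no channel alone but joins other voltage-gated potassium pores (chromosome 2, 168260117 to 168281533). It had 386 and 487 counts without Pax5 and 8 with it, or 65.6 ± 8.46 CPM (SD, n = 2) against 1.25 CPM. It rose by a log2 fold change of 5.69 (with SE 0.29 and an adjusted p of 0.00337), in all 10 alternatives.

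Kcnq5, a pore of the slow M current (chromosome 1, 21398399 to 21962650), was the one member called lower that was well counted in both groups. It had 116 and 134 counts against 360, or 18.8 ± 1.26 CPM (SD, n = 2) against 56.2 CPM. The log2 fold change was -1.58 (with SE 0.16 and an adjusted p of 0.00937), a call lost with a coefficient of variation of 0.4 (adjusted p from 1.88e-07 to 0.172). Kcnh4 had 3, 6 and 4 counts. Of 40 symbols of this class 6 were members, and Kcna5 and Kcnf1, just outside the limit, had 0, 0 and 9 counts each.

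The K2P channels, with paired pore domains, which leak potassium at rest, also divided. Kcnk12 and Kcnk13 encode the closely related THIK-2 and THIK-1. Kcnk12 had 29 and 48 counts without Pax5 and 0 with it. It was 12.4-fold higher against 3 counts set for the wild type (adjusted p = 0.0239). Kcnk13 had 0, 1 and 13 counts, a ratio of 26.9 toward the wild type (95% interval from counting error 4.05 to 1145). Kcnk13 was below the filter and has no test. Kcnk10, the stretch-sensitive TREK-2, had 1, 0 and 19 counts, a ratio of 39.4 toward the wild type (95% interval from counting error 6.26 to 1636; adjusted p = 0.0448), a call lost with DESeq2 and with library size alone (adjusted p from 5.55e-06 to 0.143).

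The other members of this class were not called. Kcnk5, the TASK-2 channel described in T cells, had 186, 247 and 129 counts (log2 fold change 0.69, with SE 0.22 and an adjusted p of 0.110). Kcnk6 had 87, 149 and 83 counts (0.45, SE 0.37), and the wild type lay beside Pax5-/- sample 1. Kcnk3 had 11, 13 and 3 counts, a ratio of 3.86 (95% interval from counting error 1.17 to 20.0; adjusted p = 0.154). Kcnj2, the inward rectifier Kir2.1 and the one member of its class, had 0, 0 and 21 counts. It was 14.5-fold lower against 3 counts set over both Pax5-/- libraries (adjusted p = 0.0466). That call was lost with library size alone (adjusted p from 7.38e-08 to 0.0564).

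The wild-type counts of Kcnj2, Kcnk10, Kcnk13 and Cacna1i were 21, 19, 13 and 17. The neutrophil and monocyte list, which did not move one way, summed to 29.3 and 46.0 CPM in Pax5-/- against 90.0, and the later B-cell list to 50.9 and 24.7 against 923; their part in these low counts was not tested.

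Auxiliary potassium channel genes were not called. Kcnab2, the cytoplasmic beta subunit of Kv1 channels, had 1653, 1705 and 1466 counts (log2 fold change 0.14, interval -0.18 to 0.47). Kcnmb4, the beta4 subunit of the BK channel whose pore gene Kcnma1 was barely counted, had 32, 34 and 8 counts. Its log2 fold change of 1.98 (with SE 0.47 and an adjusted p of 0.0595) passed in 3 of the 10 alternatives (adjusted p from 0.00295 to 0.248). Kcnrg, a soluble regulator of potassium channels, had 6, 15 and 1 counts, a ratio of 10.1 (95% interval from counting error 1.63 to 419; adjusted p = 0.159). It passed only in the likelihood ratio test (adjusted p from 0.0386 to 0.419). Its span overlaps that of Trim13, which rose, by 2831 bases, and Trim13 had 222, 268 and 15 counts. It also overlaps that of Dleu2, which was not called, by 5377 bases, and Dleu2 had 60, 44 and 56 counts. No exon bases are shared with either in GENCODE M21.

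**Figure D3:**
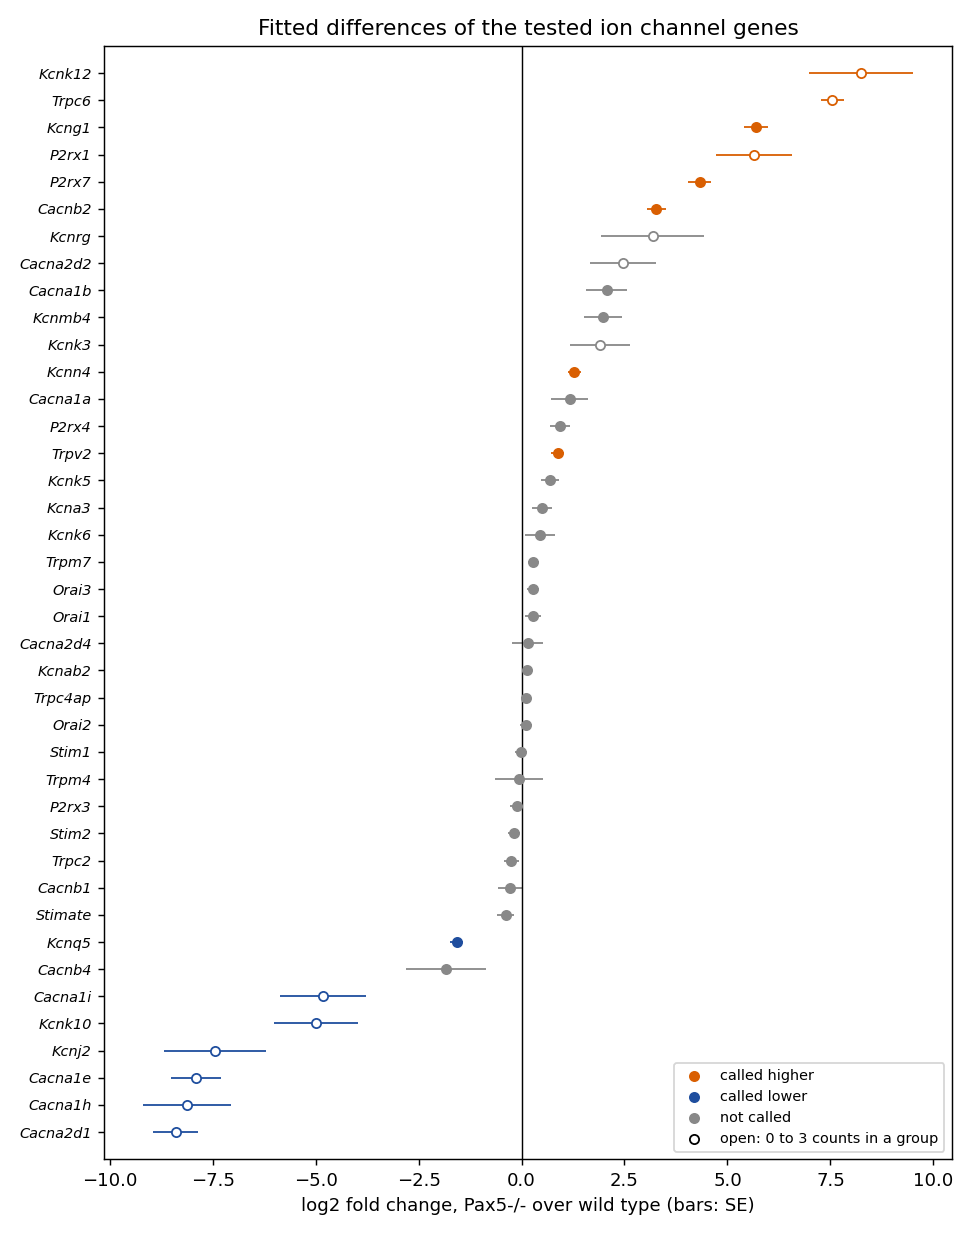
Fitted log2 fold change, Pax5-/- over wild type, of 40 of the 42 tested ion channel genes, with bars for the SE; filled points have over 3 counts in both groups, and open points have 0 to 3 in one, where the fitted size depends on the prior count and the bounds and ratios in the text apply. Kcng1, P2rx7 and Cacnb2 are the largest filled points on the right, and the Orai and Stim genes lie near 0.

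Levels can be compared between genes only per length, here as CPM per kilobase of the deposited gene length. On this scale Kcnab2 (66.8 in Pax5-/- and 60.5 in the wild type) and Trpc4ap (66.1 and 60.8) led in both groups, and neither forms a pore. In Pax5-/- they were followed by Kcnn4 at 42.4 ± 0.858 (SD, n = 2), Kcng1 at 28.3, Trpv2 at 27.5 and Stim1 at 25.5. Kcng1 stood at 25.7 and 30.9 in the 2 samples, a range that also holds Trpv2 in both, so these neighbours in the order do not differ beyond their spread. In the wild type the next were Stim1 at 25.8, Trpm7 at 19.4, Orai3 at 18.3, Orai1 at 17.7 and Kcnn4 at 17.5, a narrow range for a single library.

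All members together summed to 446 and 468 CPM per kilobase in Pax5-/- and to 325 in the wild type. Store-operated genes held 20.8% and 20.5% of that sum in Pax5-/- and 27.2% in the wild type, a smaller share at a similar level. Voltage-gated potassium pores held 8.28% and 9.38% against 5.14%, and Kcnn4 alone, the only member of its class, 9.65% and 8.93% against 5.38%. Of the voltage-gated potassium sums of 37.0, 43.9 and 16.7, Kcng1, which forms no channel alone, made up 25.7, 30.9 and 0.539. Without Kcng1 that class was lower in both Pax5-/- samples than in the wild type. Voltage-gated calcium pores held 0.588% and 0.820% against 1.10%, the least of any class but the inward rectifiers.

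**Figure D4:**
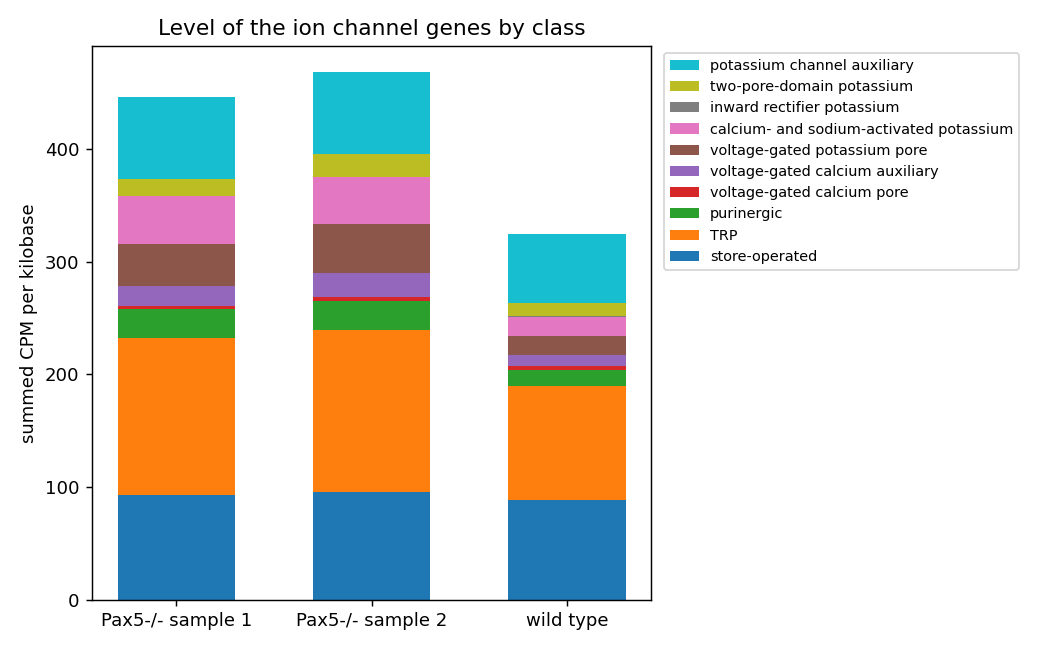
Summed CPM per kilobase of the 46 ion channel genes in each library, stacked by class on a linear axis from 0. The stacks reach 446, 468 and 325 for Pax5-/- sample 1, sample 2 and wild type; the store-operated part at the bottom is of like height in all 3.

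The nearest tested gene to each called member was looked up, as a description. It was called in the same direction for 2 of the 8 members that rose: Pgr, 355033 bases from Trpc6, and Mrc1, 374447 bases from Cacnb2 by start position. The same held for 3 of the 8 that fell, with Cd36 1847426 bases from Cacna2d1, Glul 490877 bases from Cacna1e and Gpr65 160797 bases from Kcnk10. Among called genes of the whole table the shares were 20.2% and 20.8%.

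Other genes of calcium handling were taken from lists chosen for their role. Entry through ORAI is tuned by regulators, and of 7 tested 3 rose, 1 fell and 3 were not called (median log2 fold change 0.55). Saraf, which switches STIM off after refilling, had 822 and 890 counts without Pax5 and 65 with it, or 129 ± 2.73 CPM (SD, n = 2) against 10.1 CPM. It rose by a log2 fold change of 3.66 (with SE 0.18 and an adjusted p of 0.00337). Cracr2a, a calcium sensor that stabilises the STIM and ORAI complex, had 21, 32 and 0 counts. It was 8.52-fold higher against 3 counts set for the wild type (adjusted p = 0.0288). Tespa1, an adaptor near the store membrane, had 353, 251 and 63 counts (2.21, with SE 0.33 and an adjusted p of 0.0226). The call of Tespa1 was lost with a coefficient of variation of 0.4. Esyt1, a tether between store and surface membranes, had 1971, 2186 and 3784 counts and fell.

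Of 4 tested genes of calcium export across the surface membrane 2 rose and 2 were not called (median 1.99). Atp2b4, the calcium pump PMCA4, had 2647 and 4070 counts without Pax5 and 53 with it, or 503 ± 134 CPM (SD, n = 2) against 8.27 CPM. It rose (log2 fold change 5.92, with SE 0.37 and an adjusted p of 0.00446). The samples differed from each other, but both lay far above the wild type. Slc8a1, a sodium and calcium exchanger, had 59, 49 and 2 counts, a ratio of 26.1 (95% interval from counting error 7.04 to 218; adjusted p = 0.0166).

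Of 11 tested genes of store release and refilling 1 rose, 1 fell and 9 were not called (median -0.27). The inositol trisphosphate receptor genes went apart: Itpr1 had 957, 1023 and 457 counts (1.06, with SE 0.14 and an adjusted p of 0.0183) and Itpr2 had 214, 237 and 395 (-0.86, with SE 0.14 and an adjusted p of 0.0272). Both calls were lost with a coefficient of variation of 0.4, and that of Itpr2 also with DESeq2. None of 13 tested genes of mitochondrial calcium uptake was called by edgeR or by any of the 10 alternatives (median 0.03), and 2 had an unadjusted p under 0.05. Of 7 endolysosomal channels 2 rose and 5 were not called (median 0.70): Mcoln2, a TRP relative, had 238, 227 and 46 counts (2.28, SE 0.21) and Tpcn1 had 642, 732 and 364 (0.86, SE 0.16). The call of Mcoln2 was lost with a coefficient of variation of 0.4, and that of Tpcn1 there and in the likelihood ratio test.

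Upstream, of 8 tested phospholipase C and adaptor genes 2 rose, 3 fell and 3 were not called (median -0.01). Plcb2 had 536, 613 and 152 counts (1.86, with SE 0.17 and an adjusted p of 0.00834) and Plcg1 had 285, 306 and 631 (-1.15, with SE 0.14 and an adjusted p of 0.0149); both calls were lost with a coefficient of variation of 0.4. Blnk, a known Pax5 target that links the pre-B-cell receptor to phospholipase C, had 36, 23 and 3741 counts (-7.03, SE 0.30). Downstream, of 21 tested genes of calmodulin, calcineurin and NFAT 3 rose, 4 fell and 14 were not called (median -0.39). Camk2b, a calmodulin-dependent kinase, had 1, 3 and 84 counts (-5.36, with SE 0.53 and an adjusted p of 0.00937). Camk1g had 27, 26 and 72 counts (-1.49, SE 0.30), and Nfatc2 had 18, 27 and 1, a ratio of 21.7 (95% interval from counting error 3.70 to 876). The calls of Camk1g and Nfatc2 were each lost in 3 alternatives.

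Around the P2X channels, of 11 tested genes listed for purinergic signalling 3 rose, 1 fell and 7 were not called (median 1.26). P2ry2, a receptor for ATP and UTP, had 23, 20 and 0 counts. It was 6.92-fold higher against 3 counts set for the wild type (adjusted p = 0.0291). P2ry12, an ADP receptor, had 108, 50 and 3 counts, a ratio of 25.4 (95% interval from counting error 8.54 to 125; adjusted p = 0.0437). P2ry12 was not called with limma-voom or with library size alone. P2ry10b had 44, 29 and 181 counts and fell by 2.35 on the log2 scale (with SE 0.33 and an adjusted p of 0.0195). P2ry10 had 269, 313 and 62 counts and rose by 2.18 on that scale (SE 0.19). Whether either of these answers to nucleotides was not examined.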

How the data were processed

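Whole-number counts per gene were deposited, made with featureCounts on mm10 per the submitters' processing notes. How reads were aligned, which annotation was used and whether strand was read are not stated. An Entrez number, the gene length in bases and the count are listed per the file headers. Symbols came from RefSeq genes of GRCm38.p6 (25275 of 27179 numbers matched), promoters from the RefSeq table of that build (36 of 46 members matched) and exon overlaps from GENCODE M21. Retained-intron transcripts were left out of the overlaps.

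The test was edgeR 4.0.16 in R 4.3.3: filterByExpr with the group (minimum count 10), TMM factors of 1.00, 1.018 and 0.983, glmQLFit and glmQLFTest over 11783 genes, Benjamini-Hochberg threshold 0.05. There was 1 residual degree of freedom and 3.15 prior ones, and the p-values measure the spread between these samples. A positive log2 fold change means higher in Pax5-/-. SE is the coefficient over the root of F, and intervals use 4.15 degrees of freedom. Where a group had no counts, 3 counts set over that group gave a bound on the fold. That bound takes the counts of the other group as exact and is not a confidence limit. With 1 to 3 counts, a ratio of pooled CPM has an exact Clopper-Pearson 95% interval. The interval covers counting error only.

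Alternatives used RLE or no scaling, 3 other filters, DESeq2 1.42.0, limma 3.58.1 (voom), the likelihood ratio test, robust dispersions and a fixed coefficient of variation of 0.4. The test was tried on counts simulated for 2 Pax5-/- and 1 wild-type library. It recovered 96.9% of 97 genes changed by 2 on the log2 scale and 100% of 97 changed by 4. It made 12 false calls among 11508 genes. Both groups were drawn with the same spread, so this cannot check how a lone wild type varies. Named were the called members, a set of lymphocyte channels, those around the limit, and up to 3 called genes per pathway list by size. Other members and P2ry10 were named after their values were seen. Members and lists were chosen with earlier results of these data known. The values of some genes, 2 of them members that stay in the counts and sums, are not reported here.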

Additional observations from a re-analysis of the deposited data

How the results depend on the processing

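Of the count of members called higher (8), 9 alternatives gave 6 to 10, and the likelihood ratio test gave 13. Of the count called lower (8), 8 alternatives gave 6 to 9. Library size alone gave 5, and a filter of 1 CPM in at least 2 libraries gave 2, since 6 of the 8, with 0 or 1 counts over both Pax5-/- libraries, were then not tested. Among all genes tested, 2130 were called and 1206 with a coefficient of variation of 0.4; the other alternatives stayed within 1.5 times. Members with a fold of 2 or more in every Pax5-/- sample used numbered 14 to 15 upward and 10 to 11 downward when either Pax5-/- sample was left out. With 1 library against 1 there is then no residual degree of freedom, so no test was made, and the wild type could not be left out. No called member changed sign in any alternative. No paired analysis was possible with a single wild-type sample, and the replicate numbers in the titles name no pairs. At this depth, members with 0 to 3 counts in a group have intervals that span over 10-fold.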

Other observations

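Channels outside the rule moved in both directions too. Of 10 tested genes of other cation channels, 2 rose, 3 fell and 5 were not called (median log2 fold change 0.81, edgeR quasi-likelihood test). Scn3a, a neuronal sodium channel pore, had 90 and 101 counts without Pax5 and 1 with it, a ratio of 92.2 (95% interval from counting error 16.3 to 3659; adjusted p = 0.00668). Scn4a, the sodium channel pore of skeletal muscle, had 2, 2 and 147 counts and fell by 6.16 on the log2 scale (with SE 0.37 and an adjusted p of 0.0043). Trpa1, a TRP channel for irritants whose symbol the rule does not hold, had 60, 55 and 4 counts (3.76, with SE 0.48 and an adjusted p of 0.0166). One sodium channel pore was counted almost only in Pax5-/- and another almost only in the wild type.

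Chloride and volume-regulated channels were mostly not called: of 17 tested 1 rose, 1 fell and 15 were not called (median -0.02). Clic5 had 197, 183 and 40 counts (log2 fold change 2.20, SE 0.23) and Lrrc8d, a subunit of the volume-regulated anion channel, had 140, 165 and 376 (-1.35, SE 0.16). Both calls were lost with a coefficient of variation of 0.4. Of 6 tested potassium-chloride and related cotransporters 3 fell and 3 were not called (median -0.92). Slc12a3 had 1, 4 and 64 counts (-4.66, SE 0.61) and Slc12a4 had 41, 40 and 109 (-1.48, SE 0.25). The call of Slc12a4 was lost in 2 alternatives.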
